A study of Homo sapiens with 8 samples.

Results

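The endoplasmic reticulum (ER) chaperones and the genes of the unfolded protein response are described here across HT29 cells given 1 of 3 related compounds or vehicle. The set was chosen by gene symbol, with earlier results of these data known. It holds 33 genes in 4 groups: 10 of the ATF6 branch, 5 of the IRE1/XBP1 branch, 9 of ER-associated degradation and 9 other folding factors. Of the 33, 32 had an entry among the 18937 genes of the authors' deposited tables, and 32 passed the filter on low counts together with 16449 genes in all. The exception in both cases was ERO1B, an oxidase that passes disulfide bonds to protein disulfide isomerases, whose level lay between 0 and 0.141 CPM (counts scaled to the depth of the library) in the 8 libraries.

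The ER lumen folds secreted and membrane proteins with the Hsp70 chaperone BiP, the Hsp90 paralog GRP94, the lectin chaperones calnexin and calreticulin, and protein disulfide isomerases that form disulfide bonds. When unfolded proteins accumulate, the membrane sensors IRE1, ATF6 and PERK are activated. IRE1 cuts a short intron out of the XBP1 mRNA, and the cleaved ATF6 protein moves to the nucleus and switches on chaperone genes. Both also raise genes of ER-associated degradation, which recognise misfolded glycoproteins and pass them back to the cytosol.

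HT29 is an established human colorectal adenocarcinoma cell line. The series title calls the compounds reverse-turn peptidomimetics, small molecules that imitate a peptide turn, and names the transcriptional response to them as its subject. The groups, of 2 libraries each, were ICG-001 at 10 µM, CWP232228 at 1.5 µM, YB-0158 at 0.3 µM and DMSO at 0.1%. All libraries are labelled 48 h of treatment except replicate 2 of ICG-001 and replicate 2 of CWP232228, which are labelled 49 h. The concentrations differ between the compounds, so a difference between 2 compounds below is one between the treatments as given. The labels do not say that the 2 libraries of a group came from separate cultures, so every p-value measures the spread between libraries, which may be technical.

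The libraries held 29071547 to 58489118 estimated reads each. Over 10 markers of colorectal epithelium the summed level was 9196 to 9659 TPM (levels per transcript length and library depth) with ICG-001, 9127 to 9142 with CWP232228, 10063 to 10262 with YB-0158 and 10863 to 11150 with DMSO, and 8 of the 10 exceeded 1 TPM in every library. The summed markers of fibroblasts stayed between 2.23 and 4.22 TPM, those of leukocytes between 5.20 and 10.4 TPM and those of endothelium between 0.127 and 0.712 TPM, and their part in the results was not tested. Over 8568 well-measured genes, the log2 ratio of a group's pair of libraries had an SD of 0.12 with ICG-001, 0.13 with CWP232228, 0.11 with YB-0158 and 0.30 with DMSO, so every comparison with DMSO shares a vehicle group that varied more than the compounds.

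The sequences that carry the response are shown first. The stretch of the XBP1 mRNA that IRE1 cuts is printed from the GENCODE release 29 models on GRCh38 (chromosome 22). The capitals are 26 bases whose removal gives the cut model, placed as far left as the models allow. Because the bases at both edges repeat, the same product is reached from break points that can shift by up to 6 bases. The edges of the capitals therefore do not mark the enzyme's exact cut sites.
XBP1 before the cut: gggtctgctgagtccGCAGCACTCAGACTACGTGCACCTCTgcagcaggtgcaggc
XBP1 after the cut: gggtctgctgagtccgcagcaggtgcaggc

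Promoters of 4 members are shown because they hold the elements through which ATF6 and XBP1 act and because their genes moved differently. Each is the 250 bases before a RefSeq start site on GRCh38.p14, written on the gene's strand, with motif matches in capitals. HSPA5 is at chr9:125241344-125241593 on the minus strand, CALR at chr19:12938359-12938608 on the plus strand, XBP1 at chr22:28800570-28800819 on the minus strand and HERPUD1 at chr16:56931892-56932141 on the plus strand. A second listed promoter of XBP1, at chr22:28800078-28800327, is not printed and held none of the motifs searched below.
HSPA5: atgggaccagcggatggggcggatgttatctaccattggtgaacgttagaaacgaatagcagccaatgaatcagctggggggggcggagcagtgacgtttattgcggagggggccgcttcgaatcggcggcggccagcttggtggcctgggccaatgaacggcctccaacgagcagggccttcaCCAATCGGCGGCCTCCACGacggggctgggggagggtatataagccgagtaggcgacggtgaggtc
CALR: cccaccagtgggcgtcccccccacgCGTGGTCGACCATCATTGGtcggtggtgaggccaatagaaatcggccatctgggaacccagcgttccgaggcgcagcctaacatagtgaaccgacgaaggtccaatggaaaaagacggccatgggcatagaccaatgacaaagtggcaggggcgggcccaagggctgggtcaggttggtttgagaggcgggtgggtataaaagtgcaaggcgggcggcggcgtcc
XBP1: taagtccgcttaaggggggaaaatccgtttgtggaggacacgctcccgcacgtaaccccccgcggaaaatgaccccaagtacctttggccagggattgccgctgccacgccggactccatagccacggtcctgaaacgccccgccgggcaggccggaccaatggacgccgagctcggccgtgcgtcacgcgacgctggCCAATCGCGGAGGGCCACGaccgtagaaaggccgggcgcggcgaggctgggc
HERPUD1: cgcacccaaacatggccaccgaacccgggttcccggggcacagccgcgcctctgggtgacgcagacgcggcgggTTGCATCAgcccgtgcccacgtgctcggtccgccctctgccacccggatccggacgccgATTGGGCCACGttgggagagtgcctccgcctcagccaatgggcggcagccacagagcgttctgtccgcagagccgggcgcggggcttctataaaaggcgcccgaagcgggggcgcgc

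The capitals in HSPA5, CALR and XBP1 mark the ER stress response element (ERSE), searched as CCAAT and CCACG separated by any 9 bases, on both strands of the 250 bases before and 50 after each start site. This element stood in 8 of the 30 members with a listed promoter (26.7%), against 25 of 27305 genes in the RefSeq table (0.0916%): CALR, CANX, CRELD2, ERO1B, HSP90B1, HSPA5, PDIA6 and XBP1. The related ERSE-II, ATTGG and CCACG separated by any 1 base, stood in HERPUD1, HYOU1 and SDF2L1 and in 0.0696% of all genes. HERPUD1 was the only one of the 30 with TGATGNAA, the C/EBP-ATF response element that binds ATF4, which 4.46% of all genes held. HYOU1 alone held TGACGTGG, a core of the UPR element, against 0.927% of all genes, and there it overlapped an ERSE-II by part of its letters. PDIA3, DERL1 and DERL3 had no promoter listed, and a match describes letters only.

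With ICG-001, 13 of the 32 tested members rose and 13 fell against DMSO, so 81.2% were called, next to 48.8% of all 16449 genes tested (24.8% higher and 24.0% lower). A call is an adjusted p under 0.05 in edgeR's quasi-likelihood test, with Benjamini-Hochberg adjustment over all genes. With CWP232228, 11 members rose and 8 fell, or 59.4%, next to 42.8% of all genes (21.6% higher and 21.2% lower). With YB-0158, 13 rose and 10 fell, or 71.9%, next to 43.8% of all genes (21.7% higher and 22.1% lower). Because the members were chosen with earlier results known, shares above those of all genes cannot be taken as a trait of the set. The compound libraries did not overlap with those of DMSO for 28 members with ICG-001, 24 with CWP232228 and 28 with YB-0158, next to 74.7%, 72.8% and 73.2% of all genes, with 2 libraries a group. The members' median log2 fold change was 0.07 with ICG-001, 0.05 with CWP232228 and 0.12 with YB-0158, and that of all genes was 0.03 with ICG-001, 0.04 with CWP232228 and 0.02 with YB-0158, so the members moved in both directions.

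The direction differed between the branches. Most genes of the ATF6 branch other than ATF6 fell, while most IRE1/XBP1 and degradation genes rose. With correction for GC content and length, described below, this held for the ATF6 branch and degradation genes with ICG-001 and YB-0158. It also held for the IRE1/XBP1 genes with YB-0158, but for none of these groups with CWP232228. Against the shared DMSO libraries, 11 members rose with every compound (ATF6, CLGN, DERL1, DNAJC3, EDEM1, EDEM3, ERN1, HERPUD1, HSPA13, SEL1L and XBP1). A further 7 fell with every compound (CALR, CRELD2, EDEM2, MANF, PDIA4, PDIA5 and SDF2L1), and 6 were called with none (CANX, DERL2, DNAJB11, ERO1A, HSPA5 and HYOU1). The share of all genes called alike with every compound was not computed, so these counts do not set the members apart. With GC correction, EDEM3, ERN1, HERPUD1 and XBP1 of the 11 were still called higher with CWP232228, and CALR, PDIA4 and PDIA5 of the 7 were called lower with every compound. Without CWP232228 replicate 2, ATF6, CLGN, ERN1 and HERPUD1 were the only ones of the 11 called higher with CWP232228, and limma on the deposited FPKM called 0 there.

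**Figure D1:**
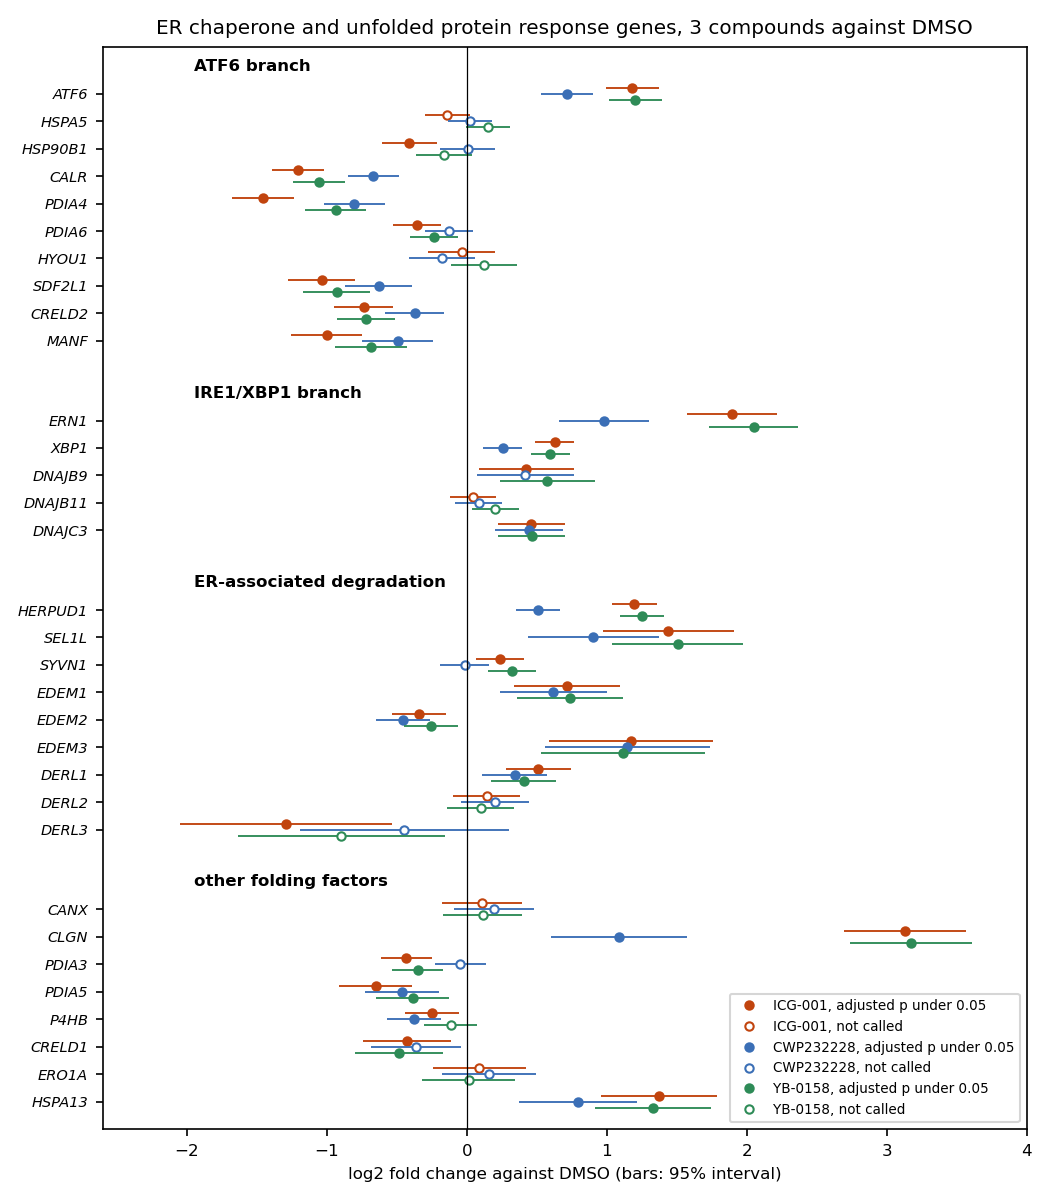
Log2 fold change against DMSO (x axis) of the 32 tested members in their 4 groups, for ICG-001, CWP232228 and YB-0158, with 95% intervals as bars; filled points passed the adjusted p of 0.05 and open points did not. The called chaperones of the ATF6 branch lie left of 0, down to -1.45 for PDIA4, HSPA5 and HYOU1 lie near 0, and ERN1, HERPUD1, SEL1L and CLGN lie to the right, up to 3.18.

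Fold changes of the members also followed the GC content of the genes. The Spearman correlation of log2 fold change with GC content over the 32 members was -0.67 with ICG-001, -0.78 with CWP232228 and -0.66 with YB-0158, and over all genes tested it was -0.43 with ICG-001, -0.58 with CWP232228 and -0.38 with YB-0158. These points share libraries. Members that rose had a median GC content of 41.3% in each comparison, and those that fell 54.0% with ICG-001, 54.3% with CWP232228 and 53.9% with YB-0158. The difference between replicates also varied with GC content, with a Spearman correlation of 0.79 with ICG-001, 0.60 with CWP232228, 0.56 with YB-0158 and -0.61 with DMSO. A fit with offsets for GC content and length, called GC correction throughout, is therefore given beside the results it changes. It called 11 members higher and 12 lower with ICG-001, 5 higher and 8 lower with CWP232228, and 12 higher and 10 lower with YB-0158. Of all 16449 genes, that fit called 7642 with ICG-001, 4209 with CWP232228 and 7140 with YB-0158. Without correction 8025, 7042 and 7209 were called, so the drop with CWP232228 was not limited to the members. The parts of GC content and of length in each result were not tested.

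**Figure D2:**
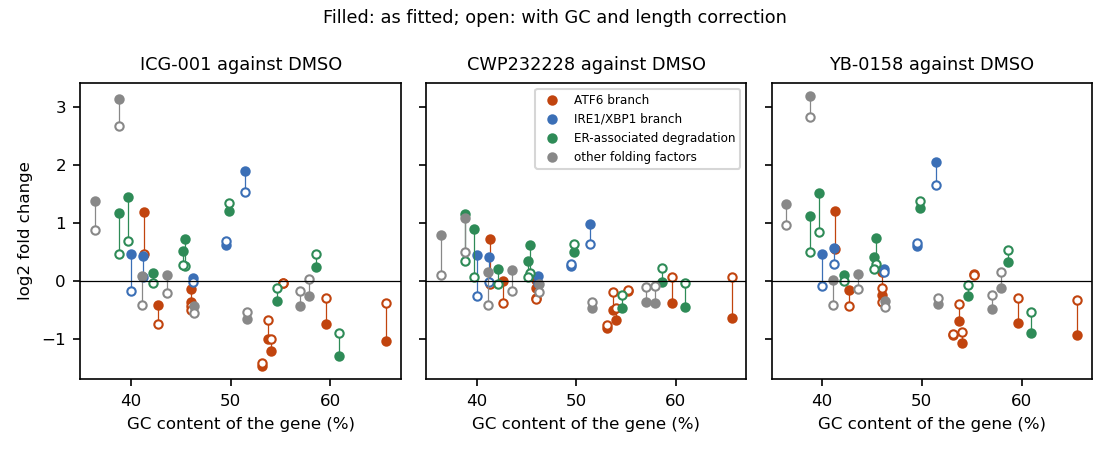
Log2 fold change against DMSO (y axis) by GC content of the gene in percent (x axis) for the 32 members, with filled points as fitted, open points after correction for GC content and length, and a line joining both values of a gene. Correction moved most CWP232228 points toward 0, while CLGN, ERN1 and HERPUD1 stayed above 1 with ICG-001 and YB-0158.

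In the ATF6 branch, ATF6 rose and its chaperone targets fell or were not called. ICG-001 raised 1 of the 10 genes and lowered 7, CWP232228 raised 1 and lowered 5, and YB-0158 raised 1 and lowered 6, with median log2 fold changes of -0.57 with ICG-001, -0.27 with CWP232228 and -0.46 with YB-0158. Of all genes tested, 24.0% fell with ICG-001, 21.2% with CWP232228 and 22.1% with YB-0158. After GC correction, 1 branch gene was higher and 8 lower with ICG-001, 0 higher and 4 lower with CWP232228, and 1 higher and 7 lower with YB-0158. Without ATF6, the branch summed to 1039 and 1017 TPM in the ICG-001 libraries, 1252 and 1337 in the CWP232228 libraries, 1182 and 1210 in the YB-0158 libraries and 1568 and 1591 in the DMSO libraries. Each compound's libraries lay below both DMSO libraries. CALR and HSP90B1 carried much of this sum, at 459 and 466 TPM as group means with DMSO and 288 and 424 with CWP232228. HSPA5 and HYOU1 were not lower with CWP232228, at 152 and 49.8 TPM against 144 and 47.6 with DMSO. The sum therefore does not show a fall of every gene.

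ATF6 encodes the membrane-bound transcription factor itself (ENSG00000118217; GRCh38 chromosome 1, 161766294 to 161964070). It stood at 122 and 123 CPM with ICG-001, 90.4 and 87.2 with CWP232228, 120 and 129 with YB-0158 and 57.4 and 50.7 with DMSO. The groups did not overlap with DMSO, and the CWP232228 libraries lay between DMSO and the other compounds. The log2 fold change was 1.18 ± 0.08 (SE; edgeR adjusted p = 2.85e-05) with ICG-001, 0.72 ± 0.08 (adjusted p = 0.000925) with CWP232228 and 1.21 ± 0.08 (adjusted p = 3e-05) with YB-0158. After GC correction it was 0.47 (edgeR adjusted p = 0.0106) with ICG-001, -0.05 (adjusted p = 0.769) with CWP232228 and 0.55 (adjusted p = 0.00548) with YB-0158, which ended the CWP232228 call.

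HSPA5 encodes BiP, the main Hsp70 chaperone of the ER and the usual readout of its stress response (ENSG00000044574; chromosome 9, 125234853 to 125241330, minus strand). It measured 533 and 551 CPM with ICG-001, 598 and 613 with CWP232228, 645 and 680 with YB-0158 and 577 and 615 with DMSO. The CWP232228 libraries fell within the DMSO range, the ICG-001 libraries just under it and the YB-0158 libraries just over it. The 95% interval of the log2 fold change ran from -0.30 to 0.02 with ICG-001, from -0.14 to 0.18 with CWP232228 and from -0.01 to 0.31 with YB-0158, and none passed the test (edgeR adjusted p = 0.135, 0.814 and 0.107). With GC correction HSPA5 was called lower with ICG-001, at -0.43 (edgeR adjusted p = 0.00598), and stood at -0.29 with CWP232228 (adjusted p = 0.0526) and -0.11 with YB-0158 (adjusted p = 0.353).

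CALR encodes calreticulin, the soluble lectin chaperone that also binds calcium (ENSG00000179218; chromosome 19, 12938578 to 12944489). Its level was 322 and 328 CPM with ICG-001, 475 and 468 with CWP232228, 356 and 363 with YB-0158 and 693 and 803 with DMSO. All compound libraries lay below both DMSO libraries. Its log2 fold change was -1.20 ± 0.08 (SE; edgeR adjusted p = 2.62e-05) with ICG-001, -0.67 ± 0.08 (adjusted p = 0.0011) with CWP232228 and -1.06 ± 0.08 (adjusted p = 5.34e-05) with YB-0158. Its promoter, like that of HSPA5, holds an ERSE.

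PDIA4 encodes a protein disulfide isomerase also known as ERp72. Its matched transcripts held only 0.386 of the authors' mean count for the gene, so the deposited FPKM (a level per transcript length and sequencing depth) are the fuller measure. These were 107 and 108 FPKM with ICG-001, 166 and 163 with CWP232228, 130 and 130 with YB-0158 and 216 and 239 with DMSO. The authors' deposited tables give log2 fold changes of -1.07 with ICG-001, -0.44 with CWP232228 and -0.79 with YB-0158. The summed counts gave -1.45 ± 0.10 with ICG-001, -0.80 ± 0.10 with CWP232228 and -0.93 ± 0.10 with YB-0158 (SE; edgeR adjusted p = 2.48e-05, 0.00103 and 0.000204). Both measures put every compound library below both DMSO libraries.

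Small cochaperones and secreted ER proteins fell as well. SDF2L1, a component of the ER chaperone complex that works with Hsp40 partners, stood at 9.93 and 8.66 CPM with ICG-001, 11.9 and 12.8 with CWP232228, 10.0 and 10.0 with YB-0158 and 19.0 and 19.2 with DMSO. Its log2 fold changes were -1.04 with ICG-001, -0.63 with CWP232228 and -0.93 with YB-0158 (SE 0.10 each; edgeR adjusted p = 0.000156, 0.00298 and 0.000287), and after GC correction -0.38 with ICG-001, 0.06 with CWP232228 and -0.33 with YB-0158, of which the CWP232228 value was not called (adjusted p = 0.698). SDF2L1 has the highest GC content of the members, 65.6%, and the shortest mean transcript length, 864 bases, and the correction covers both. MANF, a secreted factor that protects cells from ER stress, measured 33.5 and 35.5 CPM with ICG-001, 47.3 and 50.7 with CWP232228, 43.4 and 42.5 with YB-0158 and 61.1 and 77.0 with DMSO. Its log2 fold changes were -1.001 with ICG-001, -0.49 with CWP232228 and -0.68 with YB-0158 (edgeR adjusted p = 0.000253, 0.00945 and 0.00172), and after correction -0.68 with ICG-001, -0.19 with CWP232228 (adjusted p = 0.0859, no longer called) and -0.40 with YB-0158. CRELD2, a disulfide isomerase-like protein raised by ER stress, had log2 fold changes of -0.74 with ICG-001, -0.37 with CWP232228 and -0.72 with YB-0158, all called, and after correction -0.28 with ICG-001, 0.08 with CWP232228 (adjusted p = 0.377, not called) and -0.29 with YB-0158.

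The remaining ATF6 targets are HSP90B1, PDIA6 and HYOU1. HSP90B1, which encodes GRP94, stood at 580 and 656 CPM with ICG-001, 829 and 819 with CWP232228, 704 and 764 with YB-0158 and 784 and 857 with DMSO. It fell with ICG-001 by 0.41 on the log2 scale (edgeR adjusted p = 0.00519) and was not called with CWP232228 (0.01) or YB-0158 (-0.16), while after GC correction it was called lower with all 3, at -0.74 with ICG-001, -0.37 with CWP232228 and -0.43 with YB-0158. PDIA6, another disulfide isomerase, fell by 0.35 with ICG-001 and by 0.24 with YB-0158, and its value with CWP232228 was -0.12 (adjusted p = 0.206), called after correction at -0.31. HYOU1, the large Hsp110-like exchange factor of BiP, had log2 fold changes of -0.04 with ICG-001, -0.18 with CWP232228 and 0.12 with YB-0158 that did not pass the test. Its matched transcripts held 0.597 of the authors' mean, and the authors' deposited tables give 0.15 with ICG-001, 0.02 with CWP232228 and 0.29 with YB-0158, the last with an adjusted p of 0.0143.

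**Figure D3:**
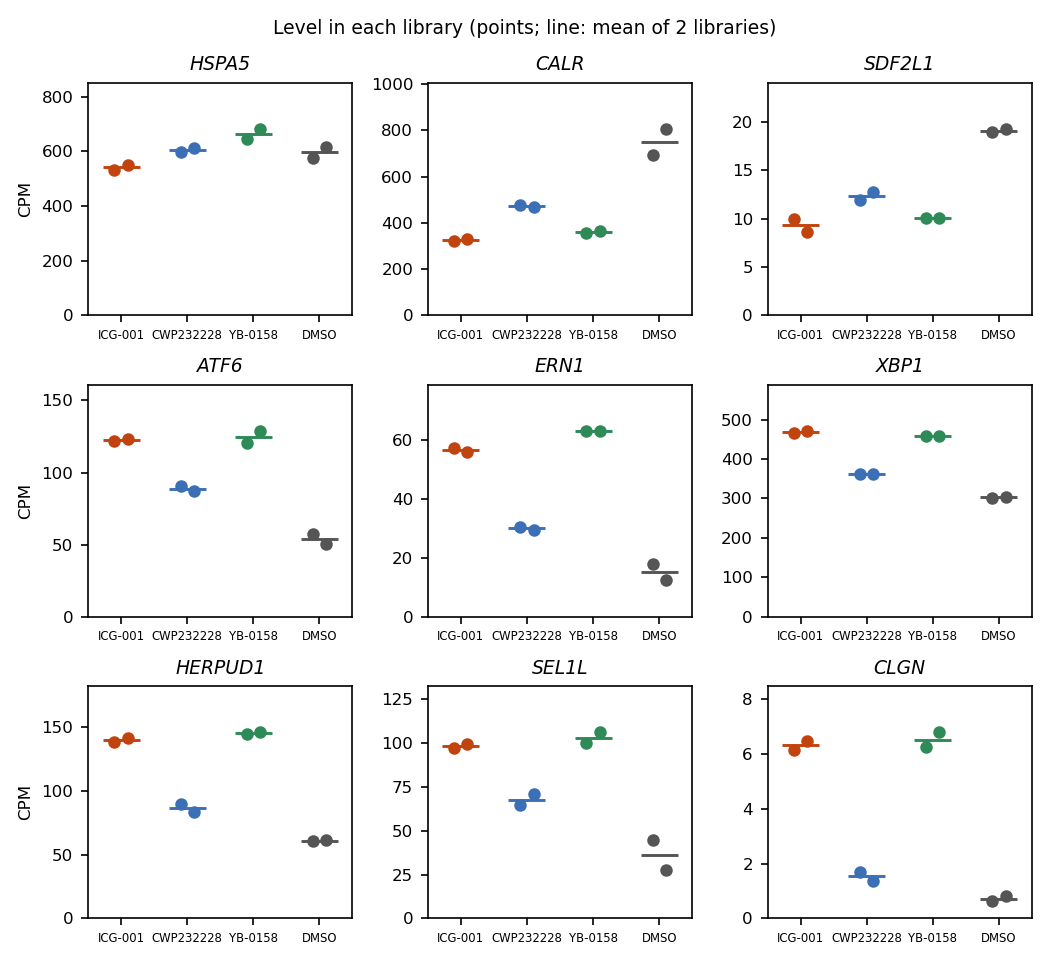
Level in CPM (y axis, from 0) of 9 members in each of the 8 libraries, with ICG-001, CWP232228 and YB-0158 left of DMSO; points are libraries and the line is the mean of 2. HSPA5 stays between 533 and 680 CPM in all groups, CALR and SDF2L1 are highest with DMSO, and the other 6 genes are lowest with DMSO.

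In the IRE1/XBP1 branch, ICG-001 raised 4 of 5 genes, CWP232228 raised 3 and YB-0158 raised 4, with median log2 fold changes of 0.46 with ICG-001, 0.42 with CWP232228 and 0.57 with YB-0158. After GC correction 2 were higher with ICG-001, 2 higher and 1 lower with CWP232228, and 3 higher with YB-0158, with medians of 0.06 with ICG-001, -0.02 with CWP232228 and 0.29 with YB-0158. Without correction, 24.8% of all genes tested rose with ICG-001, 21.6% with CWP232228 and 21.7% with YB-0158. ERN1 encodes the sensor IRE1 itself (ENSG00000178607; chromosome 17, 64039142 to 64130819, minus strand). It measured 57.2 and 55.8 CPM with ICG-001, 30.5 and 29.5 with CWP232228, 62.9 and 63.0 with YB-0158 and 17.8 and 12.6 with DMSO. All compound libraries exceeded both DMSO libraries, and the CWP232228 libraries were about midway. This is 3.72-fold with ICG-001, 1.97-fold with CWP232228 and 4.14-fold with YB-0158 over DMSO. The log2 fold changes were 1.90 ± 0.14 with ICG-001, 0.98 ± 0.14 with CWP232228 and 2.05 ± 0.14 with YB-0158 (SE; edgeR adjusted p = 3.63e-05, 0.00181 and 3e-05). After GC correction they were 1.53 with ICG-001, 0.65 with CWP232228 and 1.65 with YB-0158, all called.

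XBP1 encodes the transcription factor that IRE1 activates (ENSG00000100219; chromosome 22, 28794555 to 28800597, minus strand). It stood at 465 and 471 CPM with ICG-001, 361.8 and 361.7 with CWP232228, 457.7 and 458.4 with YB-0158 and 302 and 303 with DMSO. The libraries of each group were close together and the groups did not overlap with DMSO. Log2 fold changes were 0.63 ± 0.06 with ICG-001, 0.26 ± 0.06 with CWP232228 and 0.60 ± 0.06 with YB-0158 (SE; edgeR adjusted p = 0.00013, 0.011 and 0.000197), and the call with CWP232228 was lost without CWP232228 replicate 1 or replicate 2 (adjusted p up to 0.064). GC correction left them at 0.69 with ICG-001, 0.30 with CWP232228 and 0.65 with YB-0158.

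More XBP1 mRNA did not come with a larger share of the cut form. Of the reads assigned to cut or uncut XBP1 transcript models, the cut form took 9.49% and 9.64% with ICG-001, 9.31% and 9.57% with CWP232228, 15.3% and 10.2% with YB-0158 and 18.3% and 13.8% with DMSO. The ICG-001 and CWP232228 libraries lay below both DMSO libraries, and 1 YB-0158 library lay within the DMSO range. This share pools 2 cut models, XBP1-202 and XBP1-207 (1794 bases), and was not itself tested. In edgeR's test of transcript usage, XBP1-202 alone had an adjusted p of 1 against DMSO with every compound. Its unadjusted p was 0.123, 0.114 and 0.490, so no difference in its usage was detectable with 2 libraries a group. In TPM, where transcript length is taken out, the shares were 14.5% and 14.9% with ICG-001, 14.4% and 15.1% with CWP232228, 22.6% and 15.6% with YB-0158 and 27.3% and 20.8% with DMSO. Salmon assigns reads to whole models, and the XBP1-202 model of 1131 bases is shorter than the uncut XBP1-201 of 1850 bases, so the split rests on more than the 26 bases printed above.

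The added XBP1 reads lay mainly in uncut transcripts. XBP1-201 stood at 255 and 261 CPM with ICG-001, 196 and 241 with CWP232228, 272 and 269 with YB-0158 and 228 and 200.2 with DMSO. XBP1-204, an uncut model whose first exon is at 28799960 to 28800133 instead of 28800298 to 28800597 on GRCh38, measured 148 and 146 CPM with ICG-001, 116 and 69.8 with CWP232228, 103 and 126 with YB-0158 and 11.6 and 55.4 with DMSO. Its first exon overlaps the second listed promoter of XBP1, not the one printed above. For XBP1-204 all compound libraries exceeded both DMSO libraries, which differed widely from each other. Its share of XBP1 reads was 31.9% and 31.1% with ICG-001, 32.1% and 19.3% with CWP232228, 22.4% and 27.5% with YB-0158 and 3.85% and 18.3% with DMSO, and it did not pass the usage test (edgeR adjusted p = 0.0620, 0.203 and 0.251).

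**Figure D4:**
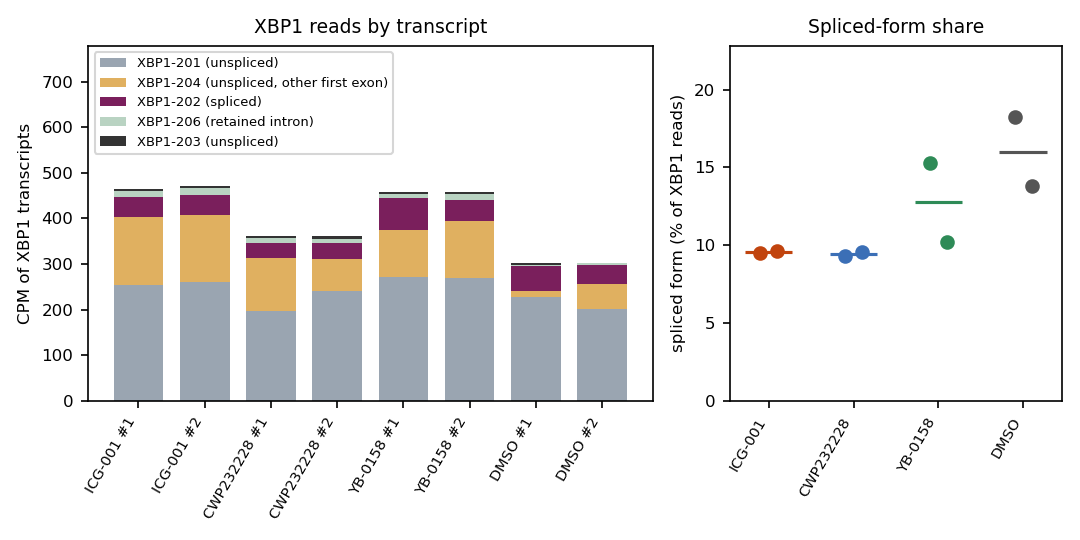
Left, CPM of XBP1 (y axis) in each library, stacked by transcript model; right, the cut form (called spliced on the axis) as a percentage of XBP1 reads, with points as libraries and the line as their mean. The total is highest with ICG-001 and YB-0158, and the share of the cut form averages 9.57% with ICG-001, 9.44% with CWP232228, 12.8% with YB-0158 and 16.0% with DMSO.

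The XBP1 targets of the DnaJ family split. DNAJC3, a BiP cochaperone that also inhibits eIF2α kinases, stood at 82.1 and 87.4 CPM with ICG-001, 79.9 and 87.8 with CWP232228, 80.1 and 89.7 with YB-0158 and 66.9 and 56.0 with DMSO. Its log2 fold changes of 0.46 with ICG-001, 0.45 with CWP232228 and 0.46 with YB-0158 were called (edgeR adjusted p = 0.00712, 0.0112 and 0.00806), yet GC correction turned the direction, to -0.18 with ICG-001, -0.26 with CWP232228 and -0.09 with YB-0158, with the CWP232228 value called lower (adjusted p = 0.0431). DNAJB9, known as ERdj4, measured 7.81 to 14.2 CPM, and rose by 0.43 with ICG-001 and 0.57 with YB-0158, against 0.42 (adjusted p = 0.0529) with CWP232228. The ICG-001 call (edgeR adjusted p = 0.0426) was lost in DESeq2, with only the 2 groups fitted and with a replicate block. For it the authors' deposited tables give an adjusted p of 0.227. After correction the DNAJB9 values were 0.06 with ICG-001, -0.02 with CWP232228 and 0.29 with YB-0158, and only that with YB-0158 was called. DNAJB11, known as ERdj3, lay between 100.7 and 122 CPM in all libraries and was not called.

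Among genes of ER-associated degradation, ICG-001 raised 6 of 9 and lowered 2, CWP232228 raised 5 and lowered 1, and YB-0158 raised 6 and lowered 1, with median log2 fold changes of 0.51 with ICG-001, 0.34 with CWP232228 and 0.41 with YB-0158. Of all genes tested, 24.8% rose and 24.0% fell with ICG-001, 21.6% and 21.2% with CWP232228, and 21.7% and 22.1% with YB-0158. After GC correction 6 degradation genes were higher with ICG-001, 3 higher and 1 lower with CWP232228, and 6 higher with YB-0158. That fit called 7642, 4209 and 7140 of all 16449 genes, in either direction. Summed over the 9 genes, the level was 520 and 500.1 TPM with ICG-001, 397 and 366 with CWP232228, 545 and 506 with YB-0158 and 336 and 252 with DMSO.

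HERPUD1 encodes a ubiquitin-like membrane protein that brings substrates to the degradation complex (ENSG00000051108; chromosome 16, 56932048 to 56944863). It stood at 138 and 141 CPM with ICG-001, 89.5 and 83.5 with CWP232228, 144 and 145 with YB-0158 and 60.3 and 61.4 with DMSO. The libraries of each group lay close together, and ICG-001 and YB-0158 were more than 2-fold over DMSO. The log2 fold changes were 1.20 ± 0.07 with ICG-001, 0.51 ± 0.07 with CWP232228 and 1.25 ± 0.07 with YB-0158 (SE; edgeR adjusted p = 1.35e-05, 0.00155 and 1.44e-05). They were 1.35 with ICG-001, 0.63 with CWP232228 and 1.38 with YB-0158 after GC correction. HERPUD1 and ERN1 were the only members that rose with CWP232228 in every fit to the counts tried.

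SEL1L, the adaptor that links substrates to the ubiquitin ligase HRD1, measured 97.4 and 99.6 CPM with ICG-001, 64.8 and 70.7 with CWP232228, 100.1 and 106 with YB-0158 and 44.9 and 27.5 with DMSO. All compound libraries exceeded both DMSO libraries, which were far apart. The log2 fold changes were 1.44 ± 0.20 with ICG-001, 0.90 ± 0.20 with CWP232228 and 1.51 ± 0.20 with YB-0158 (SE; edgeR adjusted p = 0.00122, 0.0113 and 0.00116), and after GC correction 0.69 with ICG-001, 0.07 with CWP232228 (adjusted p = 0.339) and 0.84 with YB-0158. SYVN1, which encodes HRD1, stood at 120 and 113 CPM with ICG-001, 102 and 94.2 with CWP232228, 127 and 120 with YB-0158 and 96.5 and 101.4 with DMSO. It rose by 0.24 with ICG-001 and 0.32 with YB-0158 (edgeR adjusted p = 0.029 and 0.0092) and had -0.02 with CWP232228 (adjusted p = 0.883), which GC correction put at 0.22 and called. SYVN1 shares 398 exon bases with FAU on its own strand and 356 with MRPL49 on the other, and the library kit marks no strand, so its reads are uncertain.

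The mannosidase-like EDEM proteins trim glycans of misfolded proteins and mark them for degradation. EDEM3 rose by 1.17 with ICG-001, 1.15 with CWP232228 and 1.12 with YB-0158 and EDEM1 by 0.72 with ICG-001, 0.62 with CWP232228 and 0.74 with YB-0158, with DMSO libraries at 38.9 and 21.7 CPM for EDEM3 and 36.8 and 24.4 for EDEM1. GC correction brought EDEM3 to 0.47 with ICG-001, 0.34 with CWP232228 and 0.51 with YB-0158, all called, and EDEM1 to 0.26 with ICG-001, 0.15 with CWP232228 (adjusted p = 0.172) and 0.29 with YB-0158. EDEM2 went the other way, at 40.0 and 38.2 CPM with ICG-001, 37.1 and 35.1 with CWP232228, 41.7 and 41.3 with YB-0158 and 46.9 and 52.1 with DMSO. Its log2 fold changes were -0.34 with ICG-001, -0.46 with CWP232228 and -0.26 with YB-0158 (edgeR adjusted p = 0.00995, 0.00441 and 0.0368), and after correction -0.12 with ICG-001 (adjusted p = 0.0962), -0.25 with CWP232228 (adjusted p = 0.0128) and -0.06 with YB-0158 (adjusted p = 0.416).

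The derlins form part of the channel through which substrates leave the ER. DERL1 rose by 0.51 with ICG-001, 0.34 with CWP232228 and 0.41 with YB-0158 (edgeR adjusted p = 0.0037, 0.0263 and 0.012). After GC correction it stood at 0.27 with ICG-001, 0.07 with CWP232228 (adjusted p = 0.444) and 0.20 with YB-0158. The CWP232228 call was also lost with only the 2 groups fitted, and limma on the deposited FPKM called DERL1 with no compound. For DERL1 with CWP232228 the authors' deposited tables give an adjusted p of 0.0865. DERL2 lay between 22.0 and 26.4 CPM in all libraries and was not called. DERL3 was at 0.404 and 0.543 CPM with ICG-001, 0.716 and 0.978 with CWP232228, 0.557 and 0.691 with YB-0158 and 1.36 and 0.955 with DMSO, and fell with ICG-001 by 1.29 (edgeR adjusted p = 0.0122; 0.0692 after GC correction). Of its 3796 exon bases, 2923 lie opposite exons of SMARCB1, which reached 91.1 CPM, so its level is uncertain.

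Among the other folding factors the largest response was that of CLGN, which encodes calmegin, a calnexin homolog known for folding sperm surface proteins in testis (ENSG00000153132; chromosome 4, 140388455 to 140427968, minus strand). It stood at 6.15 and 6.49 CPM with ICG-001, 1.69 and 1.37 with CWP232228, 6.27 and 6.78 with YB-0158 and 0.626 and 0.813 with DMSO. The levels were low, but all compound libraries exceeded both DMSO libraries. This is 8.75-fold with ICG-001, 2.12-fold with CWP232228 and 9.03-fold with YB-0158 over DMSO, or log2 fold changes of 3.13 ± 0.19 with ICG-001, 1.09 ± 0.21 with CWP232228 and 3.18 ± 0.19 with YB-0158 (SE; edgeR adjusted p = 1.71e-05, 0.00533 and 2.17e-05). GC correction gave 2.66 with ICG-001, 0.50 with CWP232228 (adjusted p = 0.195) and 2.82 with YB-0158. Its ubiquitous relative CANX, or calnexin, stood at 645 and 701 CPM with ICG-001, 706 and 723 with CWP232228, 658 and 692 with YB-0158 and 713 and 534 with DMSO. These values overlapped with DMSO and were not called, though the GC-corrected value with ICG-001, -0.20, was (adjusted p = 0.0197). For CANX the authors' deposited tables give 0.45 with ICG-001, 0.52 with CWP232228 and 0.49 with YB-0158. Of these, the values with CWP232228 and YB-0158 had adjusted p of 0.0351 and 0.0475.

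HSPA13, an Hsp70-like protein of microsomes, rose by 1.38 with ICG-001, 0.80 with CWP232228 and 1.33 with YB-0158 on the log2 scale (edgeR adjusted p = 0.00064, 0.011 and 0.000867), to 26.8 and 30.5 CPM with ICG-001, 18.1 and 20.2 with CWP232228 and 25.7 and 29.8 with YB-0158, against 13.2 and 8.84 with DMSO. It has the lowest GC content of the tested members, 36.4%, and correction left 0.88 with ICG-001, 0.11 with CWP232228 (adjusted p = 0.26) and 0.97 with YB-0158.

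The further disulfide isomerases were lower where called, and only PDIA5 was called with every compound. PDIA3, or ERp57, which works with calreticulin and calnexin, stood at 693 and 767 CPM with ICG-001, 967 and 942 with CWP232228, 748 and 800.0 with YB-0158 and 958 and 1014 with DMSO. It fell by 0.43 with ICG-001 and by 0.35 with YB-0158 (edgeR adjusted p = 0.00264 and 0.0082), and its value with CWP232228 was -0.05. P4HB, the founding isomerase and the member with the highest level in each group (766 to 886 TPM as group means), fell by 0.25 with ICG-001 and by 0.38 with CWP232228, and had -0.11 with YB-0158 (adjusted p = 0.294). After GC correction P4HB was not called in any comparison, at 0.03 with ICG-001, -0.08 with CWP232228 and 0.15 with YB-0158. PDIA5 fell by 0.65 with ICG-001, 0.46 with CWP232228 and 0.39 with YB-0158, and these calls held after correction at -0.53 with ICG-001, -0.35 with CWP232228 and -0.29 with YB-0158. With only the 2 groups fitted, the PDIA5 calls with CWP232228 and YB-0158 were lost, and limma on the deposited FPKM called it with no compound. The authors' deposited tables give adjusted p of 0.0698 with CWP232228 and 0.136 with YB-0158. PDIA5 shares 490 of its 4030 exon bases with SEC22A on its own strand. CRELD1, a membrane relative of CRELD2, fell by 0.42 with ICG-001 and 0.48 with YB-0158 and was at -0.36 with CWP232228 (adjusted p = 0.0665), with no call after correction.

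ERO1A, the oxidase that reloads the isomerases, ranged from 54.6 to 73.4 CPM with no call. After GC correction it was called lower with all 3 compounds, at -0.42 with ICG-001, -0.41 with CWP232228 and -0.41 with YB-0158 (edgeR adjusted p = 0.00201, 0.00608 and 0.00238). The authors' deposited tables give the opposite sign, 0.36 with ICG-001, 0.24 with CWP232228 and 0.30 with YB-0158, the first with an adjusted p of 0.0485. The direction of ERO1A therefore depends on the processing.

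The transcript make-up was also tested for the 30 members with at least 2 transcripts. Usage differed (gene-level adjusted p under 0.05 in edgeR's usage test with Simes' method) for DERL2, PDIA3 and SYVN1 with ICG-001, for CALR, PDIA3 and SYVN1 with CWP232228 and for PDIA3 and SYVN1 with YB-0158, next to 3.88%, 3.58% and 3.2% of 11611 genes. SYVN1-213 took 5.71% and 5.87% of SYVN1 reads with ICG-001, 4.79% and 4.48% with CWP232228, 5.78% and 6.11% with YB-0158 and was at 0 in both DMSO libraries, where 3 counts would equal 0.105 and 0.102 CPM. PDIA3-204 took 2.78% and 6.11% with ICG-001, 6.71% and 3.06% with CWP232228, 0.352% and 3.04% with YB-0158 and 0.0796% and 0.0487% with DMSO. A transcript at 0 can be a choice of Salmon's model between similar transcripts, which was not tested.

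The difference between treatments was tested in the same model, and the choice of members with earlier results known applies here too. CWP232228 against ICG-001 called 10 of 32 members, 5 higher and 5 lower (31.2%), next to 6.82% of all genes (3.65% higher and 3.17% lower). CLGN, ERN1, HERPUD1, ATF6 and XBP1 were lower with CWP232228 by log2 differences of -2.04, -0.91, -0.69, -0.47 and -0.37. PDIA4, CALR, MANF, HSP90B1 and PDIA3 were higher, by 0.65, 0.54, 0.51, 0.42 and 0.39. Apart from HSP90B1, at 824 CPM with CWP232228 and 820 with DMSO, the CWP232228 mean of each lay between those of ICG-001 and DMSO. With any 1 library of ICG-001 or CWP232228 left out, only 1 to 3 of these genes were called, and CLGN was the only one called in each such fit.

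YB-0158 against CWP232228 called 7 of 32 members (21.9%), next to 7.78% of all genes (3.56% higher and 4.21% lower). CLGN, ERN1, HERPUD1, ATF6, XBP1 and SYVN1 were higher with YB-0158, by log2 differences of 2.09, 1.07, 0.74, 0.49, 0.34 and 0.34, and CALR was lower by -0.39. Leaving out 1 library of either group kept 2 or 3 of the 7 calls, always CLGN and HERPUD1.

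YB-0158 against ICG-001 called 0 of 32 members in edgeR's test, next to 0.00608% of all genes, which is 1 gene. At an unadjusted p under 0.05 there were 5 members, and DESeq2 called 2, HSPA5 and PDIA4. HSPA5 was higher with YB-0158 by 0.29 on the log2 scale (95% interval 0.13 to 0.45) and PDIA4 by 0.52 (0.30 to 0.74), with edgeR adjusted p of 0.659 and 0.439. In the summed counts the largest absolute difference among the members was that of PDIA4, whose matched transcripts held only 0.386 of the authors' mean count. Its mean in the deposited FPKM, the fuller measure, was 107 with ICG-001 and 130 with YB-0158. The median half-width of the members' unadjusted 95% interval was 0.24. The missing calls do not show that both treatments act alike.

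Genes of the same pathways outside the set were counted from 5 further lists of 101 genes, of which 100 were tested. They cover translocation, glycosylation, other folding and redox factors, other degradation factors, and sensors with their proteases and retrieval receptors. ICG-001 raised 29 and lowered 25, CWP232228 raised 27 and lowered 26, and YB-0158 raised 28 and lowered 22, with median log2 fold changes of 0.10 with ICG-001, 0.04 with CWP232228 and 0.11 with YB-0158. Of all genes tested, 24.8% rose and 24.0% fell with ICG-001, 21.6% and 21.2% with CWP232228, and 21.7% and 22.1% with YB-0158. The counts of the 100 lay close to these shares. After GC correction the counts were 26 and 26, 5 and 17, and 30 and 23, while 7642, 4209 and 7140 of all 16449 genes were called. DNAJC10, the ER reductase ERdj5, rose most, at 279 and 321 CPM with ICG-001, 222 and 236 with CWP232228, 260 and 295 with YB-0158 and 120 and 92.7 with DMSO. Its log2 fold changes were 1.50 with ICG-001, 1.11 with CWP232228 and 1.39 with YB-0158 (edgeR adjusted p = 0.000105, 0.00114 and 0.000184; 0.86 with ICG-001, 0.35 with CWP232228 and 0.86 with YB-0158 after GC correction, all called).

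The next largest changes of each comparison fell on prolyl isomerases, a protease, a transcription factor and a ubiquitin-conjugating enzyme. FKBP2, a prolyl isomerase, fell by 1.22 with ICG-001 and by 1.12 with CWP232228 (edgeR adjusted p = 0.0199 and 0.0311), and neither call held after GC correction (adjusted p = 0.27 and 0.405). PPIB, or cyclophilin B, fell by 0.96 with ICG-001 (adjusted p = 0.000257), or by 0.46 after correction. MBTPS2, the site-2 protease that cuts ATF6, rose by 0.88 with CWP232228 (adjusted p = 0.0137), and by correction stood at 0.29 (adjusted p = 0.0647). CREB3L2, an ATF6-like membrane-bound factor, rose by 1.07 with YB-0158, and UBE2J1, the conjugating enzyme that works with HRD1, by 0.98 (adjusted p = 0.00032 and 0.000222), and both calls held after correction at 0.61 and 0.53.

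The authors' deposited tables gave the same sign for every member called here, and an adjusted p under 0.05 for 23 of 26 with ICG-001, 16 of 19 with CWP232228 and 20 of 23 with YB-0158. Members with such a value there but no call here were ERO1A with ICG-001, CANX with CWP232228, and CANX, DERL3, HSP90B1 and HYOU1 with YB-0158. A test with limma on the deposited FPKM was stricter: on log2(FPKM + 0.5) it called 7 members higher and 8 lower with ICG-001 and 8 higher and 5 lower with YB-0158. With CWP232228 limma called 0 members, with 14 at an unadjusted p under 0.05 and 56 genes called in all, where DESeq2 on the counts called the same 19 members as edgeR. Without CWP232228 replicate 2, 4 members were higher and 4 lower with CWP232228.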

How the data were processed

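RNA of 8 HT29 libraries (4 groups of 2) was sequenced from TruSeq RNA v2 libraries, per the labels. Tools listed in the submitters' processing notes are Salmon 1.3.0, fastp and DESeq2, with GRCh38 as genome build, while the transcriptome release is not given in the sources used here. Per the file headers, the deposited transcript files hold Salmon's estimated counts and TPM. The authors' deposited tables hold, for each compound against DMSO, a mean signal (normalized count), a log2 fold change, p-values and FPKM per library.

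Estimated counts were matched by transcript identifier to GENCODE release 29 (204677 of 228754 transcripts, 89.5%), summed per gene and rounded. Unmatched transcripts held 1.54% to 1.85% of reads, and a count of 3 equalled 0.0522 to 0.105 CPM, which covers counting error only. Genes were tested in edgeR 4.0.16 (R 4.3.3; TMM, filterByExpr, robust quasi-likelihood, 4 groups in 1 model with 4 residual degrees of freedom), with Benjamini-Hochberg adjustment over 16449 genes and a threshold of 0.05. Transcript usage was tested with diffSpliceDGE. The procedure was tested on simulated data. CPM are scaled by TMM. Promoters come from RefSeq (GRCh38.p14).

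Alternatives were other scaling, no filter, only the 2 groups compared, each library left out, a replicate block, offsets for GC content and length, DESeq2 1.42.0, and limma 3.58.1 on log2(FPKM + 0.5) and log2(FPKM + 0.1). Replicate numbers were not taken as pairs. All members were named, with 3 further pathway genes per compound by largest called log2 fold change without overlap. Members and lists were chosen with earlier results of these data known.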

Additional observations from a re-analysis of the deposited data

How the results depend on the processing

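Scaling by DESeq2's size factors left all calls against DMSO in place and added 1 with YB-0158. The counts of members called moved by more than 1.5 times as follows. With limma on log2(FPKM + 0.5) and log2(FPKM + 0.1), 7 and 7 members were higher and 8 and 8 lower with ICG-001, 0 and 0 higher and 0 and 0 lower with CWP232228, and 8 and 7 higher and 5 and 4 lower with YB-0158. With only the 2 groups fitted, 6 were lower with YB-0158. In that fit CWP232228 against ICG-001 gave 8 higher and 8 lower, and YB-0158 against CWP232228 gave 10 higher and 3 lower. Without a filter, 1 member was higher for YB-0158 against ICG-001, and 10 were higher and 2 lower for YB-0158 against CWP232228. DESeq2 gave 2 higher for YB-0158 against ICG-001 and 2 lower for YB-0158 against CWP232228. GC and length correction gave 5 higher with CWP232228 against DMSO, 9 lower for CWP232228 against ICG-001, and 12 higher and 4 lower for YB-0158 against CWP232228. The cause of these moves was not tested.

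Leaving out 1 library in turn gave 10 to 14 higher and 9 to 13 lower members with ICG-001, 4 to 13 and 4 to 9 with CWP232228, and 9 to 14 and 5 to 11 with YB-0158. The lowest counts came without ICG-001 replicate 2 (higher) and replicate 1 (lower), without CWP232228 replicate 2, and without YB-0158 replicate 2 (higher) and replicate 1 (lower). For CWP232228 against ICG-001 the ranges were 0 to 8 higher and 1 to 8 lower, for YB-0158 against ICG-001 0 to 1 higher and 0 to 0 lower, and for YB-0158 against CWP232228 2 to 10 higher and 0 to 3 lower. Of the calls against DMSO, 10 of 13 higher and 8 of 13 lower held in every such fit with ICG-001, 4 of 11 and 4 of 8 with CWP232228, and 7 of 13 and 5 of 10 with YB-0158. The difference in the share of the cut XBP1 form ranged from -8.70 to -4.20 percentage points with ICG-001, -8.82 to -4.32 with CWP232228 and -5.80 to -0.72 with YB-0158. A lone library in these fits is assumed to vary like the other groups.

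Among members called with or without it, GC and length correction turned the sign of DNAJC3 (-0.18 with ICG-001, -0.26 with CWP232228, -0.088 with YB-0158), ERO1A (-0.42, -0.41 and -0.41 with the compounds in that order), CANX (-0.20) and P4HB (0.033) with ICG-001, and of ATF6 (-0.051), HSP90B1 (-0.37), SDF2L1 (0.063), CRELD2 (0.079) and SYVN1 (0.22) with CWP232228. The sign also turned, with no call in either fit, for HSPA5 and CANX with CWP232228 and YB-0158, P4HB with YB-0158, DERL2 with every compound, DNAJB11 with ICG-001 and CWP232228, and DNAJB9 with CWP232228.

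Same-numbered libraries deviated oppositely between compounds and DMSO (correlations -0.35 with ICG-001, -0.37 with CWP232228 and -0.28 with YB-0158 over 8568 genes) and alike between compounds (0.42, 0.52 and 0.27), so the numbers were not taken as pairs. A replicate block called 12 members higher and 12 lower with ICG-001, 11 and 8 with CWP232228, and 14 and 9 with YB-0158, and moved no count by over 1.5 times. The block with GC and length correction gave 5 higher with CWP232228, 8 lower for CWP232228 against ICG-001, and 11 higher and 5 lower for YB-0158 against CWP232228. In that fit the signs of members called with or without it turned for DNAJC3 (-0.18 with ICG-001, -0.26 with CWP232228, -0.086 with YB-0158), ERO1A (-0.42, -0.41 and -0.41), CANX (-0.20) and P4HB (0.033) with ICG-001, and ATF6 (-0.049), HSPA5 (-0.28), HSP90B1 (-0.37), SDF2L1 (0.065), CRELD2 (0.079) and SYVN1 (0.22) with CWP232228. Crossing the DMSO numbers, an alternative chosen after seeing the data, gave 13 higher and 13 lower with ICG-001, 12 and 8 with CWP232228, 14 and 11 with YB-0158, and 3 lower for YB-0158 against CWP232228.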
